A study of Homo sapiens with 32 samples.

Results

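The HOX cluster genes are the 38 homeobox genes considered here in the HOXA, HOXB, HOXC and HOXD clusters, out of 20037 protein-coding genes in the RefSeq table of GRCh38.p14. A peak of HNF4α chromatin immunoprecipitation sequencing (ChIP-seq) was counted as a HOX peak when its summit lay within 50 kb of the span of a member gene. All 38 members were found in the table: 10 in HOXA, 10 in HOXB, 9 in HOXC and 9 in HOXD. By this rule 219 of the 337294 peaks in 18 peak lists were HOX peaks. Overlapping peaks of the 18 lists were merged into 78729 regions, of which 45 held a HOX peak and are called HOX sites below.

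HOX genes encode homeodomain transcription factors that set position along the body axis of the embryo, and within a cluster the genes lie in the order in which they act from head to tail. Their proteins commonly bind DNA together with TALE homeodomain cofactors of the PBX, MEIS and PKNOX families. Polycomb complexes keep the clusters silent in many adult tissues, and Trithorax-type methyltransferases such as KMT2A oppose them. HNF4α is a nuclear receptor of liver, gut and pancreas whose P1 and P2 promoters give isoforms with different N-termini.

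The libraries came from 3 human pancreatic ductal adenocarcinoma cell lines, with 9 groups of 2 libraries each, and every library had its own peak list. Panc10.05 cells were induced with doxycycline to express the P1 isoform α2 (25 ng/mL) or the P2 isoform α8 (12.5 ng/mL), so isoform and dose cannot be told apart in this line. BxPC3 cells were induced to express α2 or α8 with 500 ng/mL in either case. The BxPC3 α8 libraries have titles that name P1, while their genotype is given as P2-α8, which was used. AsPC1 cells received no doxycycline by their labels and carried CRISPR interference (CRISPRi), in which a guide RNA directs repression of a promoter, with a guide labelled sgNC (the comparator), sgP1 or sgP2. The titles give a single guide letter for sgP1 and for sgP2. All these cells were mapped with an antibody against HNF4α of either promoter (pan-HNF4α, PP-H1415), and AsPC1 sgNC and sgP2 cells were also mapped with a P1-specific antibody (PP-K9218). Cells were crosslinked with disuccinimidyl glutarate and then formaldehyde. Nothing in the labels states that the 2 libraries of a group came from separate cultures, so the spread between them may be technical. Peak lists hold no expression values, so neither the cell type nor the induced or repressed isoform could be checked against its genes.

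With the pan antibody, list length ranged over 24828 to 39111 peaks for Panc10.05 libraries, 12681 to 41808 for BxPC3 and 11686 to 24295 for AsPC1. With the P1 antibody they held 697 and 260 peaks in sgNC and 5200 and 3916 in sgP2. Read depth is unknown. The lowest −log10 q in a list was about 8 in the induced lines (8.00 to 8.04) and about 2 in AsPC1 (2.00 to 2.02). Site calls between them therefore used only peaks at −log10 q 8 or above. The titles carry a number prefix that differs between the lines and whose meaning the labels do not give, so line and prefix cannot be told apart. Only AsPC1 carried CRISPRi, and only the other lines had a doxycycline-induced isoform. In comparisons with AsPC1, line therefore cannot be told apart from induction or CRISPRi. Strength is given below as the percentile of a peak's fold enrichment within its own whole list, where 100 is the strongest peak. AsPC1 percentiles therefore also count peaks below −log10 q 8. Ranks in lists of different length or different lowest −log10 q cannot by themselves show a change in binding. The fold enrichment and q-value of a peak are the authors' own.

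Reference sequence is shown for 2 of the member gene starts at which HNF4α summits fell. The stretch before HOXA13 also held a summit, of 1 list, and is not printed. RefSeq (GRCh38.p14) gave 26 distinct stretches of 250 bases before a start, for 20 of the 38 members, and 5 of them were overlapped by a peak. The stretch before 1 of the HOXA3 starts was the only one of the 26 overlapped in all 6 AsPC1 pan-HNF4α lists, and the stretch before the longer HOXA10 form was overlapped in 4 of those 6. These 2 stretches lie on the minus strand at chr7:27122373-27122622 and chr7:27179862-27180111. Capitals mark the bases between the lowest and the highest summit of the lists whose summit fell inside: 69 bases from 9 lists for HOXA3 and 32 bases from 3 lists for HOXA10.
HOXA3 start: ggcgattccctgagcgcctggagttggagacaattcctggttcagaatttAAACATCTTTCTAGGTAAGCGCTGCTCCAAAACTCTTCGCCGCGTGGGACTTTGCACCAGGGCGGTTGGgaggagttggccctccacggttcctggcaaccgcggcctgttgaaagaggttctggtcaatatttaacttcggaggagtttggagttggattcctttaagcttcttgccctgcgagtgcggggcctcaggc
HOXA10 start: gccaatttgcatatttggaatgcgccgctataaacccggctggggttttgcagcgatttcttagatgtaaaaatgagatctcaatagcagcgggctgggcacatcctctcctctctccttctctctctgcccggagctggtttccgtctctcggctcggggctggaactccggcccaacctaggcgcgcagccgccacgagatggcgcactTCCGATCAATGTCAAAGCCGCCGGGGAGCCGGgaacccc

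The 9 lists with a summit in the HOXA3 stretch were the 6 AsPC1 pan-HNF4α lists, both P1-antibody lists of sgP2 and BxPC3 P1-α2 replicate 2. The peaks overlapping the HOXA10 stretch ranked lower, at percentiles 41.9 in sgNC replicate 1, 12.5 and 6.55 in sgP1, and 3.73 in sgP2 replicate 2. At −log10 q 8 or above, the HOXA10 site was in 1 of the 6 AsPC1 pan-HNF4α lists. The G+C content was 54.8% for the HOXA3 stretch and 58.8% for the HOXA10 stretch. The HNF4 motif forms CAAAGTCCA, CAAAGTTCA and CAAAGGTCA were searched on both strands, and none of the 26 HOX stretches held any of them, against 316 of 34796 stretches of the same length in the RefSeq promoter table (0.908%). The shorter word CAAAGTCC, which shares its letters with the first form and was chosen after the sequence had been seen, occurred once in the 26 stretches. Its reverse complement GGACTTTG lies in the capitals of the HOXA3 stretch, and 353 of the 34796 stretches (1.01%) held the word on either strand. A match of letters is a description and not evidence of a bound site.

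HNF4α sites were unevenly spread over the 4 clusters: 25 lay around HOXA, 11 around HOXC, 9 around HOXB and 0 around HOXD in any of the 18 lists. Of the 45 sites, 27 lay within the span of a member gene and 18 lay between or beside members. The span includes exons and introns, which the gene table does not separate. The searched windows were 199.7 kb for HOXA, 300.2 kb for HOXB, 217.2 kb for HOXC and 203.4 kb for HOXD, so HOXB had the longest window and not the most sites. Of the HOXA sites 13 of 25 were in at least 6 lists, against 6 of 11 in HOXC and 1 of 9 in HOXB. In all, 12 sites were in 1 list, 33 in at least 2 and 6 in at least 10.

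**Figure D1:**
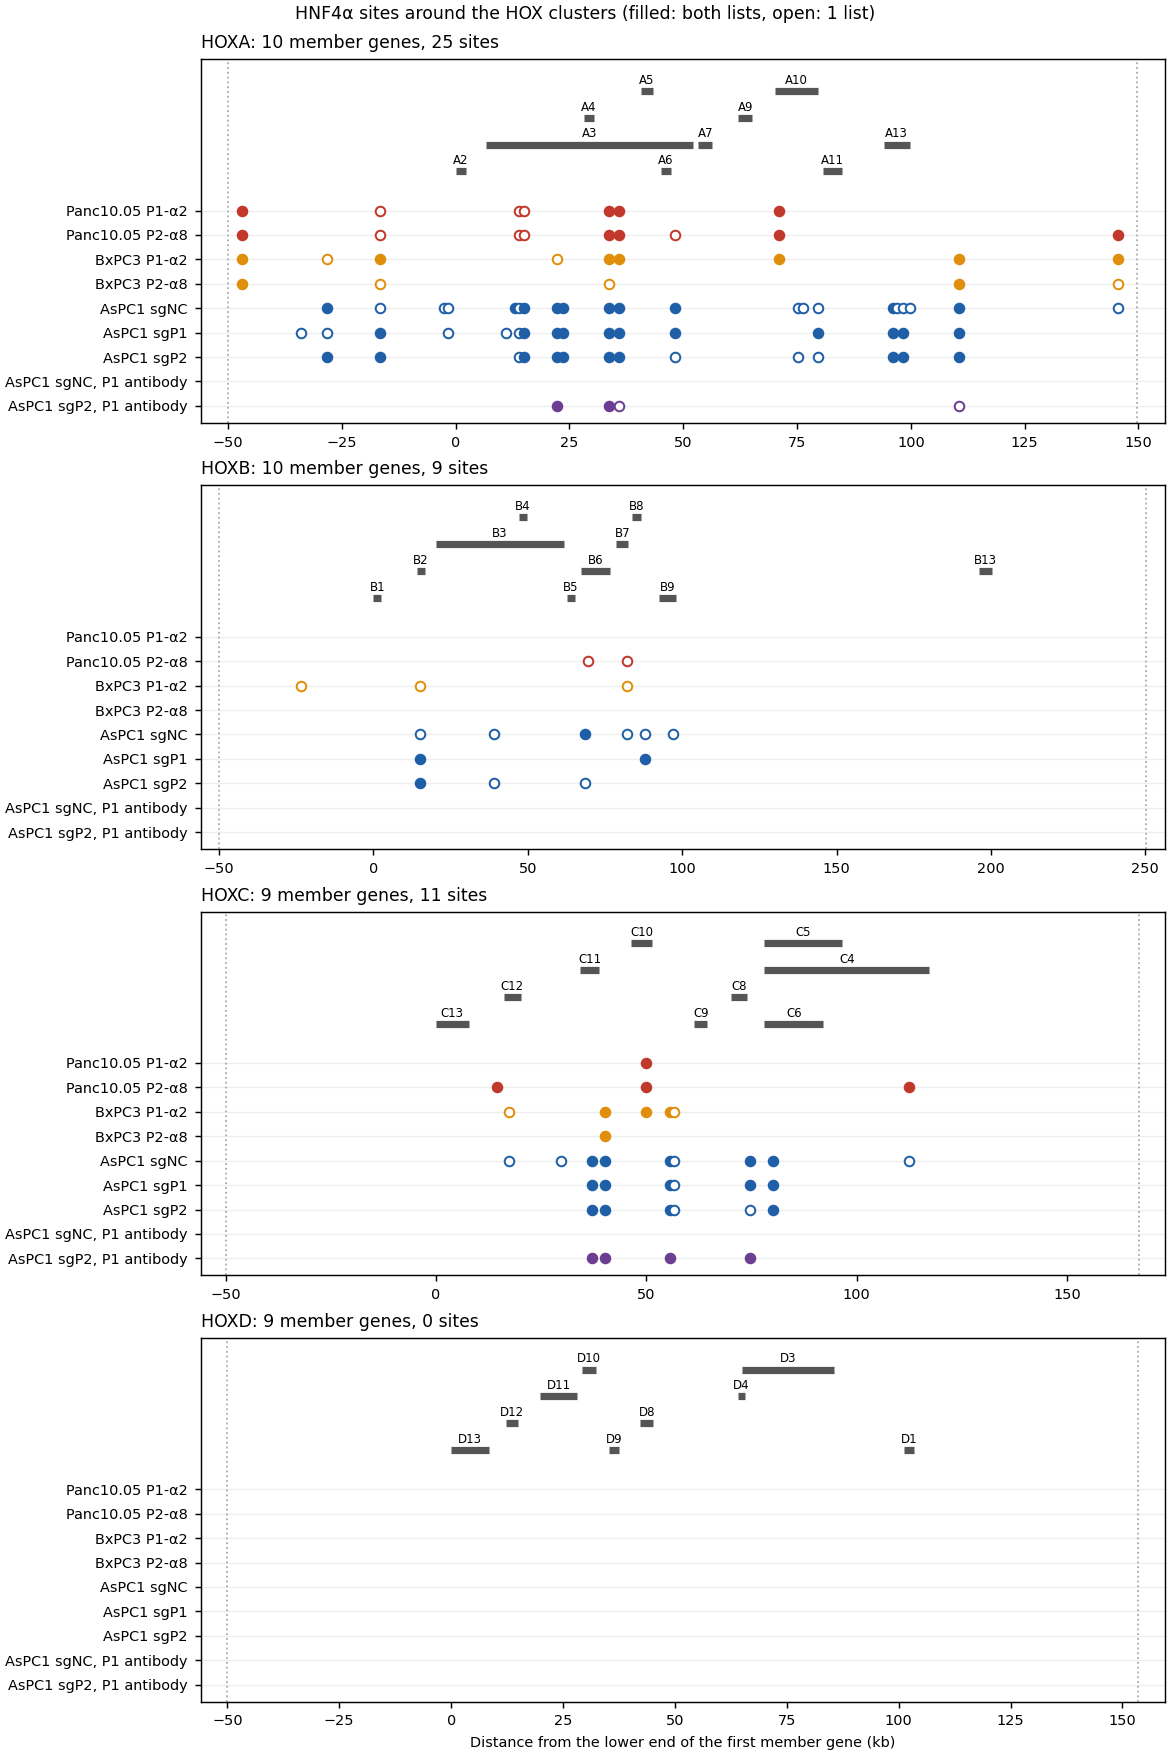
HNF4α sites around the HOXA, HOXB, HOXC and HOXD clusters; the x axis gives kb from the lower end of the first member gene, grey bars are member genes, rows are the 9 groups, filled circles are sites in both lists of a group, open circles sites in 1 list, and dotted lines bound the 50 kb windows. HOXA holds 25 sites, HOXB 9, HOXC 11 and HOXD none.

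The absence of peaks at HOXD covered each of its 9 genes, HOXD1, HOXD3, HOXD4 and HOXD8 to HOXD13, which include regulators of limb and digit patterning. None had a summit within 50 kb in any list, whereas 1171 of 20037 protein-coding genes (5.84%) had none in any list. HOXD genes are neighbours and share their window, so they are not 9 separate observations. HOXB13, a posterior gene known from prostate, lies apart from the rest of HOXB and was the only other member with no summit. EVX2, the even-skipped homeobox gene beside HOXD, also had a summit in 0 of 18 lists, while its paralog EVX1 beside HOXA had one in 15.

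All 10 HOXA genes and all 9 HOXC genes had a summit within 50 kb in 13 of the 14 pan-HNF4α lists. In the remaining list, BxPC3 P2-α8 replicate 2, this held for 7 of 10 HOXA genes and 9 of 9 HOXC genes. Over all protein-coding genes the share with such a summit ranged from 51.8% to 84.3% in these 14 lists. HOXB varied most between lists, with 0 of 10 genes in 5 of the 8 induced-line lists, 5 to 9 in the other 3, and 5 to 9 in the 6 AsPC1 lists. The median member had 15.5 sites within 50 kb in HOXA, 9 in HOXC and 7 in HOXB, and the median protein-coding gene had 6. Neighbouring members share windows, so the same peak or site counts for several genes and these are not separate observations. In both Panc10.05 P1-α2 lists and both BxPC3 P2-α8 lists, the 9 of 9 HOXC genes rested on 1 HOXC peak.

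**Figure D2:**
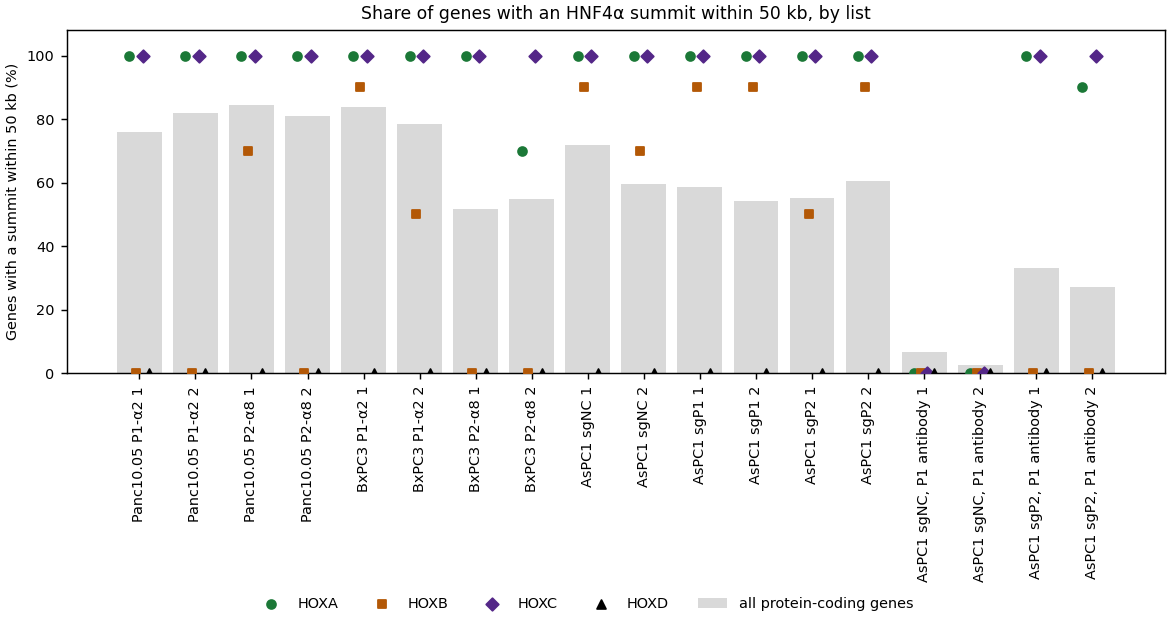
Share of genes (%) with an HNF4α summit within 50 kb in each of the 18 lists: grey bars show all protein-coding genes and symbols the members of each cluster. HOXD stays at 0 in every list, and HOXA and HOXC are at 100% in 13 of the 14 pan-HNF4α lists. Members of a cluster share windows, so the same peak can count for several members.

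AsPC1 held more HOX peaks than the induced lines. AsPC1 pan-HNF4α lists contained 34 and 18 HOX peaks in sgNC, 21 and 22 in sgP1, and 17 and 22 in sgP2. Panc10.05 lists contained 6 and 7 with P1-α2 and 12 and 10 with P2-α8. BxPC3 lists contained 15 and 12 with P1-α2 and 5 and 4 with P2-α8. The AsPC1 values lay above every value of the induced lines, but these whole lists differ in their lowest −log10 q.

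At a −log10 q of at least 8, HOX peaks were 0.138% ± 0.00399 (SD, n = 2) of the list in AsPC1 sgNC, 0.146% ± 0.0157 (SD, n = 2) in sgP1 and 0.129% ± 0.0181 (SD, n = 2) in sgP2. The same share was 0.0223% ± 0.00259 (SD, n = 2) in Panc10.05 P1-α2 and 0.0302% ± 0.000679 (SD, n = 2) in P2-α8. It was 0.0357% ± 0.000219 (SD, n = 2) in BxPC3 P1-α2 and 0.0334% ± 0.00859 (SD, n = 2) in P2-α8. The 6 AsPC1 lists ranged from 0.117% to 0.157% and the 8 induced-line lists from 0.0205% to 0.0394%, so the groups of lines did not overlap. Among the 11686 strongest peaks of each list, the length of the shortest pan-HNF4α list, AsPC1 lists held 12 to 22 HOX peaks and induced-line lists 1 to 5. The equal-length count and the share at a −log10 q of at least 8 were chosen after the data had been seen.

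**Figure D3:**
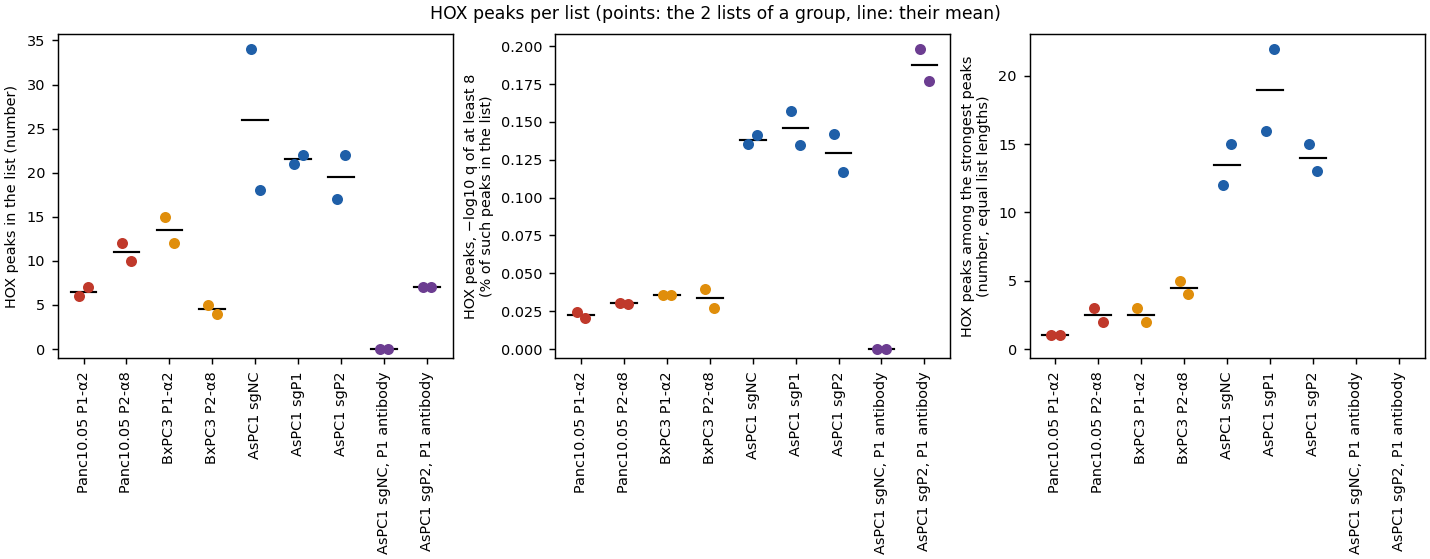
HOX peaks per list by group: number in the whole list (left), share (%) of peaks with a −log10 q of at least 8 (middle) and number among the strongest 11686 peaks of each pan-HNF4α list (right); points are the 2 lists of a group and lines their mean. AsPC1 pan-HNF4α lists lie above every Panc10.05 and BxPC3 list in each panel.

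The lines differed in which sites they held as well as in number. In whole lists, whose lowest −log10 q differs between the lines, 22 of the 45 sites were in AsPC1 lists only, 6 in induced-line lists only and 17 in both. When only pan-antibody peaks at −log10 q 8 or above were kept, 12 of 35 HOX sites were in AsPC1 lists only, against 6.18% of all regions. A further 9 were in induced-line lists only, against 74.6%, and 14 in both, against 19.3%. A site was called when it was in every list of one side and in no list of the other. The same 35 HOX sites were compared between the 8 induced-line lists and the 6 AsPC1 pan-HNF4α lists. AsPC1 held 3 of these 35 that the induced lines lacked, against 0.826% of all regions tested, and the induced lines held 1 that AsPC1 lacked, against 3.03%. For each of these 4 sites Fisher's exact test gave p = 0.000333, the smallest this design allows, and an adjusted p of 0.00863 over 72996 regions. The test counts lists as units and pools isoforms and guides. Lists of the same line are not independent, so these p-values do not measure the spread between lines.

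The first of the 3 sites held by AsPC1 lay within HOXC11 (chr12:53975370-53976312), a posterior gene linked to lumbosacral patterning, at 37.1 kb from the lower end of the cluster. Its percentiles were 94.6 and 91.4 in sgNC, 78.7 and 82.1 in sgP1, and 31.3 and 75.3 in sgP2. It ranked high in 5 of these 6 lists, and sgP2 replicate 1 stood apart. The site at 80.1 kb (chr12:54018592-54019158) lay within the shared span of HOXC4, HOXC5 and HOXC6, genes of cervical and thoracic identity. Its percentiles were 78.8 and 64.6 in sgNC, 81.9 and 53.8 in sgP1, and 45.9 and 76.6 in sgP2, so the guide groups overlapped. The last lay within HOXA13 (chr7:27196206-27196695), a gene of distal limb and urogenital patterning, at 96.1 kb. Its percentiles were 63.0 and 47.2 in sgNC, 58.3 and 26.1 in sgP1, and 37.5 and 16.1 in sgP2. The spread within each guide group was about as wide as the differences between them.

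The site held by the induced lines alone lay 47.0 kb beyond HOXA2 (chr7:27052800-27053729), near the edge of the 50 kb window and outside the cluster. HOXA2 patterns the hindbrain and the branchial arches. The percentiles were 30.2 and 19.2 in Panc10.05 P1-α2, 92.2 and 43.7 in Panc10.05 P2-α8, 21.6 and 64.3 in BxPC3 P1-α2, and 29.0 and 38.1 in BxPC3 P2-α8. It was the 1 HOX site present in all 8 induced-line lists, and Panc10.05 P2-α8 replicate 1 ranked it highest. With a window of 10 kb it was no longer a HOX site. A pair of further sites was in 6 of 8 induced-line lists and in no AsPC1 list, 1 within HOXC10 at 49.9 kb (chr12:53987931-53989049) and 1 within HOXA10 at 71.1 kb (chr7:27171265-27171812). For each of them Fisher's exact test gave p = 0.00966 and an adjusted p of 0.0729.

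Most of these calls changed at equal list length. The 4 sites then called for AsPC1 were HOXA3 at 22.2 kb, HOXA3 at 35.8 kb, HOXC10 at 55.6 kb and HOXC4 at 80.1 kb, of which only the last had been called before, and 0 were called for the induced lines. At a −log10 q of at least 20 in every list, 0 sites were called in either direction.

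**Figure D4:**
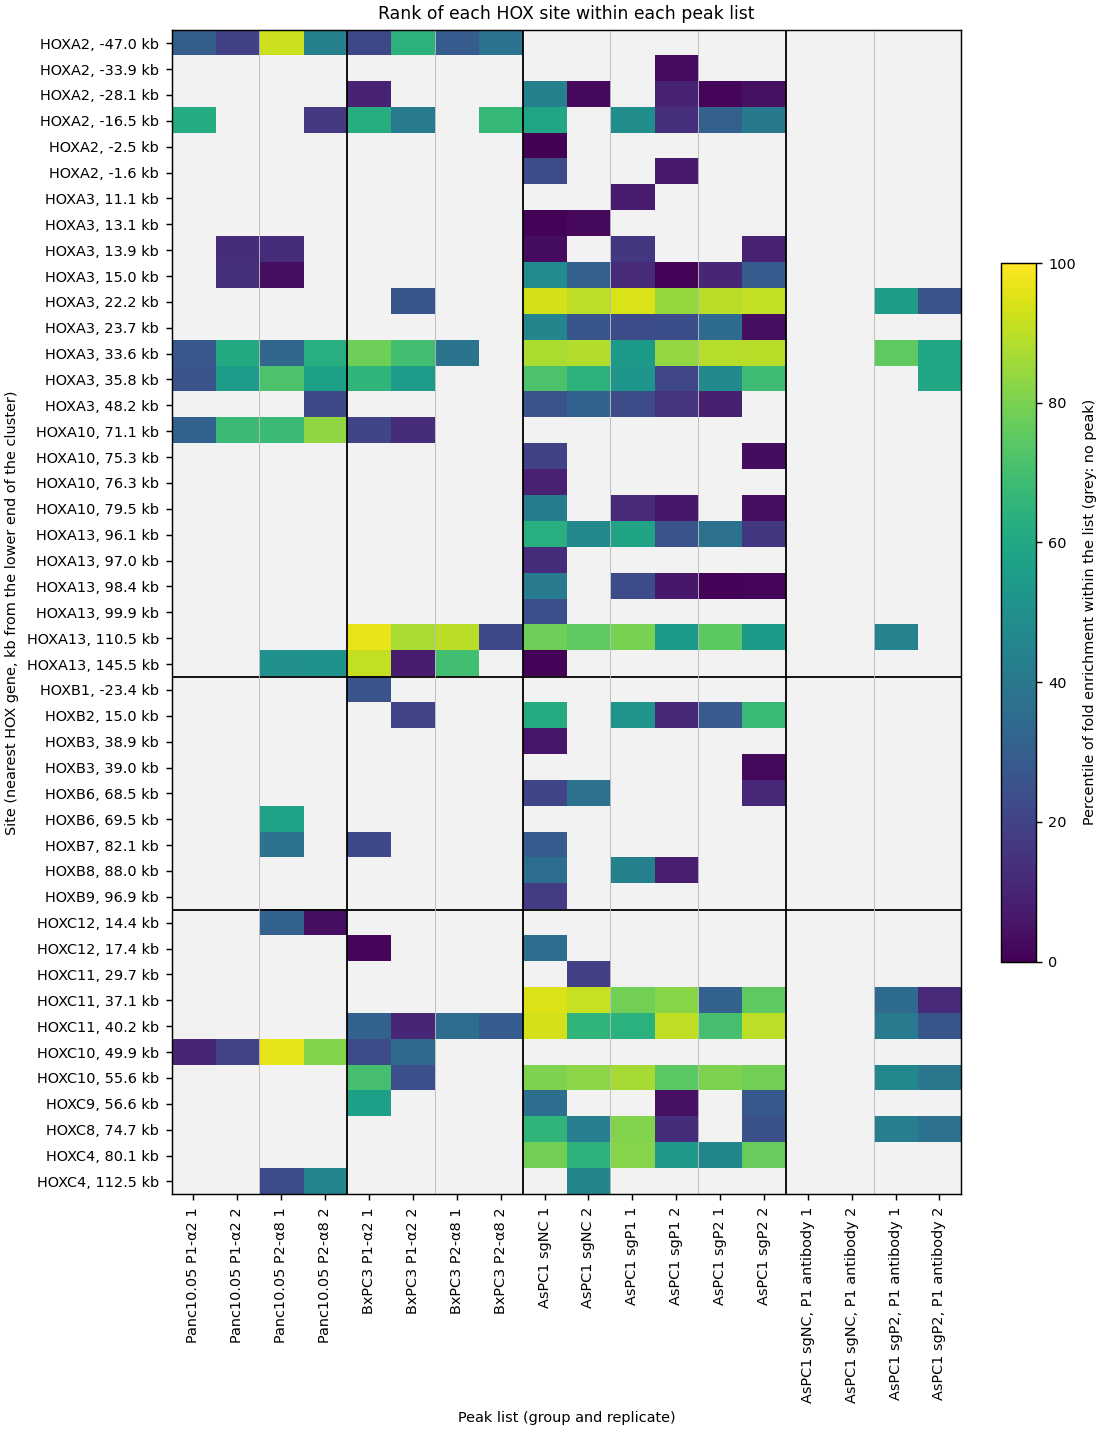
Percentile of fold enrichment within the list (colour, 0 to 100; grey where the list has no peak) for the 45 HOX sites in rows and the 18 lists in columns, with thick lines between clusters and between lines or antibodies. The AsPC1 pan-HNF4α columns are filled at 39 sites in at least 1 list, and both sgNC columns of the P1 antibody are empty.

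HOXA3 carried the sites found in the most lists. HOXA3 acts in the pharyngeal pouches that give the thymus and parathyroids. Its site at 33.6 kb (chr7:27133585-27134653) was in 15 of 18 lists. The percentiles in AsPC1 were 87.7 and 88.4 in sgNC, 54.6 and 83.8 in sgP1, and 88.9 and 89.2 in sgP2. In the induced lines they were 27.1 and 60.9 in Panc10.05 P1-α2, 33.0 and 63.1 in Panc10.05 P2-α8, 78.1 and 69.8 in BxPC3 P1-α2, and 38.5 in 1 of the 2 BxPC3 P2-α8 lists. Apart from sgP1 replicate 1, each AsPC1 pan-HNF4α list ranked the site above every induced-line list. These are ranks in whole lists, whose lowest −log10 q differs between the lines, and the order was not checked at a shared cutoff.

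A neighbouring HOXA3 site at 35.8 kb (chr7:27135809-27136642) was in 13 lists. Its percentiles were 72.1 and 64.7 in sgNC, 52.6 and 21.1 in sgP1, and 47.7 and 68.9 in sgP2. They were 26.3 and 54.8 in Panc10.05 P1-α2, 72.3 and 56.9 in Panc10.05 P2-α8 and 65.4 and 55.3 in BxPC3 P1-α2. The lines overlapped in rank at this site, and both BxPC3 P2-α8 lists lacked it.

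The HOXA3 site at 22.2 kb (chr7:27122132-27122981), which covers the HOXA3 start printed above and the antisense RNA HOXA-AS2, ranked at or above percentile 84.3 in all 6 AsPC1 pan-HNF4α lists, which no other HOX site did. Its percentiles were 93.7 and 90.1 in sgNC, 94.3 and 84.3 in sgP1, and 89.6 and 90.7 in sgP2. Among the induced lines only BxPC3 P1-α2 replicate 2 held it, at percentile 26.6. Presence in 6 of 6 AsPC1 and 1 of 8 induced-line lists gave an adjusted p of 0.0592 by Fisher's exact test (p = 0.00466), which did not pass the threshold of 0.05.

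The HOXA2 site 16.5 kb beyond the cluster (chr7:27083482-27084057) was in 10 lists, 5 from AsPC1 and 5 from the induced lines. Its percentiles ranged from 13.3 to 66.7, with no order by line. Of the 25 HOXA sites, 7 were in all 6 AsPC1 pan-HNF4α lists, as were 4 of the 11 HOXC sites and 0 of the 9 HOXB sites. Of these 11 sites, 4 were in no induced-line list. These counts use whole lists, whose lowest −log10 q differs between the lines. The matching share of all regions is not given here, so the counts are not read as particular to HOX sites. At the shared −log10 q cutoff used for the calls, 3 of the 4 sites were still in all 6 AsPC1 pan-HNF4α lists. The remaining one, the HOXA3 site at 23.7 kb, was then in 4 of the 6.

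HOXB sites were few, and most were in few lists. The site within HOXB2 (chr17:48543310-48543910), a hindbrain gene, was in 6 lists. Its percentiles were 61.6 in 1 of the 2 sgNC lists, 51.6 and 11 in sgP1, 28.8 and 67.9 in sgP2, and 20.2 in BxPC3 P1-α2 replicate 2. The next HOXB sites were in 3 lists each: HOXB7 at 82.1 kb (chr17:48610285-48611023), HOXB8 at 88.0 kb (chr17:48615919-48616751) and HOXB6 at 68.5 kb (chr17:48596744-48597246). HOXB7 is a gene often reported as raised in tumours and HOXB8 one of myeloid progenitors. Percentiles at these 3 sites ran from 8.31 to 44.1. The median over sites of their mean percentile was 26 over the 9 HOXB sites, 18.6 over the 25 HOXA sites and 43.9 over the 11 HOXC sites.

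Panc10.05 and BxPC3 lists were fully separated at 2 of 23 HOX sites, both held by all 4 BxPC3 lists and by no Panc10.05 list. The background for BxPC3 was 2.09% of 68486 regions, and the opposite call applied to 0 of 23 sites against 5.54%. The first site lay 10.8 kb beyond HOXA13 at 110.5 kb (chr7:27210502-27211215). Its percentiles were 96.8 and 87.2 in BxPC3 P1-α2, 89.5 and 21.5 in BxPC3 P2-α8, 77.8 and 75.1 in AsPC1 sgNC, 80.1 and 54.6 in sgP1, and 74.8 and 54.5 in sgP2. It was among the strongest HOX sites of 3 BxPC3 lists, and BxPC3 P2-α8 replicate 2 stood apart.

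The second site lay 1.39 kb beyond HOXC11 at 40.2 kb (chr12:53978155-53979602). Its percentiles were 31.4 and 10.8 in BxPC3 P1-α2, 35.6 and 29.2 in BxPC3 P2-α8, 93.5 and 65.5 in AsPC1 sgNC, 63.7 and 90.4 in sgP1, and 70.6 and 89.95 in sgP2. Every AsPC1 pan-HNF4α list ranked it above every BxPC3 list, in whole lists whose lowest −log10 q differs between the lines. At either site Fisher's exact test gave p = 0.029, the smallest possible with 4 lists against 4, and an adjusted p of 0.374. By that test 0 regions passed after adjustment, while 5227 regions, 2 of them HOX sites, had an unadjusted p under 0.05.

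Between isoforms in Panc10.05, 3 of 14 HOX sites were in both P2-α8 lists and neither P1-α2 list, against 10.9% of 49070 regions. In the other direction it was 0 of 14, against 3.63%. With 2 lists against 2, the smallest p of Fisher's exact test is 0.33, so no region can pass and the counts are descriptive. The first site lay 1.70 kb from HOXC12 (chr12:53952986-53953356), with percentiles of 31.3 and 3.65 in P2-α8. The second lay within HOXC4 at 112.5 kb (chr12:54051083-54051527), with percentiles of 22.8 and 45.2. The third lay 45.7 kb from HOXA13 within the span of EVX1 and EVX1-AS (chr7:27245531-27246128), with percentiles of 50.4 and 51.2. A further 5 of the 14 sites were in all 4 lists, against 38.1% of all regions. Without P2-α8 replicate 2 the P2-α8 count was 5, and it was 1, the site at EVX1, under either equal list length or a −log10 q filter of 20.

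One of those 5, the HOXC10 site at 49.9 kb, ranked differently between the isoforms in Panc10.05. HOXC10 is a posterior gene of lumbar motor neurons. The percentiles were 10.5 and 20.4 with P1-α2 and 96.2 and 81.3 with P2-α8, with no overlap between the groups. The authors' fold enrichments there were 8.27 and 10.0 with P1-α2 and 33.5 and 18.2 with P2-α8. List lengths overlapped between the isoforms, at 24828 and 34146 peaks with P1-α2 and 39111 and 33646 with P2-α8. Isoform and dose cannot be told apart in this line and read depth is unknown, so these ranks alone cannot show a change in binding by isoform. This rank difference was noticed after the values were seen and was not tested.

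In BxPC3 the counts in whole lists ran the other way. P1-α2 lists held 4 of 17 HOX sites that both P2-α8 lists lacked, against 28.3% of 46797 regions, and 0 of 17 were held by P2-α8 alone, against 0.13%. The P1-α2 lists had 41808 and 33737 peaks and the P2-α8 lists 12681 and 14666. The 4 sites were HOXC10 at 49.9 kb (percentiles 23 and 34.7), HOXC10 at 55.6 kb (chr12:53993530-53994931, 70.4 and 24.4), HOXA3 at 35.8 kb (65.4 and 55.3) and HOXA10 at 71.1 kb (21.1 and 12.7). HOXA10 acts in the uterus and in blood progenitors. At equal list length 0 sites were called for P1-α2 and 1 for P2-α8, HOXC11 at 40.2 kb. Without P1-α2 replicate 2 the P1-α2 count was 9. Sites in all 4 lists were 3 of 17, against 18.4% of all regions.

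Few HOX sites separated the CRISPRi groups with the pan antibody. Of 38 HOX sites, 2 were in both sgNC lists and neither sgP1 list, against 9.06% of 26452 regions, and 0 were held by sgP1 alone, against 0.408%. They were HOXA3 at 13.1 kb (chr7:27113219-27113609), with percentiles of 1.05 and 2.05 in sgNC, and HOXB6 at 68.5 kb, with percentiles of 21.1 and 37.1. Against sgP2 only the HOXA3 site at 13.1 kb was held by sgNC alone, 1 of 37 against 7.27% of 26590 regions, and 0 of 37 were held by sgP2 alone, against 0.414%. Its percentiles put it among the weakest peaks of its lists. sgNC replicate 1 had the longest AsPC1 list, and the counts moved with which sgNC list was used. Without sgNC replicate 2 the sgNC count was 12 in either comparison. Without sgNC replicate 1 it was 4 against sgP1 and 3 against sgP2, and 5 sites were held by sgP1 alone and 3 by sgP2 alone.

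Between the guides, 1 of 27 HOX sites, HOXB8 at 88.0 kb, was in both sgP1 lists and neither sgP2 list, against 2.76% of 19938 regions. Its percentiles in sgP1 were 44.1 and 8.31, and it was also in sgNC replicate 1 at 36.0. In the other direction it was 0 of 27, against 4.39%, and leaving out sgP2 replicate 1 made that 3. Leaving out any 1 of the 4 lists raised the sgP1 count to 2 or 3. Sites in all 4 lists were 14 of 27 between the guides (38.7% of all regions), 13 of 38 for sgP1 and sgNC (32.4%) and 12 of 37 for sgP2 and sgNC (34.4%). The comparisons share libraries and are given side by side only. With 2 lists against 2 these counts have no test that can pass.

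The P1 antibody gave HOX peaks in sgP2 cells and in no sgNC list. Both sgP2 lists held 7 HOX peaks, 0.157% ± 0.0312 (SD, n = 2) of their peaks, and both sgNC lists held 0. The 0 peaks of 697 and of 260 in sgNC allow a share of up to 0.430% and 1.15%, above the sgP2 share, so a difference in share was not detectable at these list lengths. Of 8 HOX sites in the P1-antibody lists, 6 were in both sgP2 lists and neither sgNC list, against 36.5% of 6109 regions, and 0 were held by sgNC alone, against 0.0655%. No p below 0.33 is possible by Fisher's exact test here, and 0 sites were called when list length was made equal or when every peak needed a −log10 q of at least 20. Equal length kept only the strongest 260 peaks of each list. The highest HOX percentiles in the sgP2 lists were 75.3 and 58.9, so no HOX peak could remain and that 0 does not bear on the 6 calls.

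The 6 sites were at HOXA3, HOXC11, HOXC10 and HOXC8. At HOXA3 the percentiles within the P1-antibody lists of sgP2 were 75.3 and 58.9 at 33.6 kb and 55.9 and 26.2 at 22.2 kb. At HOXC11 they were 35.1 and 12.3 at 37.1 kb and 41 and 26.9 at 40.2 kb. They were 46.3 and 39.8 at HOXC10 (55.6 kb) and 42.8 and 37.6 at HOXC8 (74.7 kb, chr12:54013161-54013857), a gene of brachial motor neurons. The HOXA3 site at 33.6 kb ranked highest in both lists. The summits of the HOXC11 site at 40.2 kb lay apart in these lists, at chr12:53979055 and chr12:53978496. With summits chained within 100 bp, 5 sites were called and this HOXC11 site was not among them. The other 2 of the 8 sites, HOXA3 at 35.8 kb and HOXA13 at 110.5 kb, were in 1 sgP2 list each.

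All 8 P1-antibody sites were also pan-HNF4α sites in AsPC1. Of the 8, 7 were in all 6 pan lists, and these 7 made up 7 of the 11 sites found in all 6. The share of all P1-antibody regions with such an overlap is not given here, so the overlap is not read as particular to HOX sites. The HOXC10 site at 55.6 kb had pan-HNF4α percentiles of 80.7 and 82.5 in sgNC, 86.4 and 74.5 in sgP1, and 80.4 and 78.6 in sgP2. The HOXC8 site was the exception, with percentiles of 65.4 and 42.9 in sgNC, 81.0 and 13 in sgP1, and 24.8 in 1 of the 2 sgP2 lists.

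Some TALE cofactor genes, by contrast with HOXD, had summits nearby in many lists. MEIS2 had a summit within 50 kb in 16 of 18 lists, PBX2 in 15 and MEIS3 in 1. The median protein-coding gene had one in 11 lists. Between the induced lines and AsPC1, MEIS2 had a region held by the induced lines alone, as did 14% of all protein-coding genes. By the same gene-level count 1 of 38 HOX members had a region held by the induced lines alone, and 16 of 38 had one held by AsPC1 alone, against 5.17% of all protein-coding genes. Those 16 members share 3 sites, since neighbouring genes lie in the same window.

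Regulators of HOX chromatin varied more. Of 14 such genes, the H3K27 demethylase gene KDM6B and the Polycomb gene CBX7 had a summit within 50 kb in 17 lists each and KMT2A in 16. The Polycomb genes SUZ12 and RNF2 had one in 5 and 7 lists, all from the induced lines. For the median protein-coding gene the number was 11 lists. Regions held by AsPC1 alone were found at 3 of the 14 (BMI1, CBX7 and KMT2A), against 5.17% of all protein-coding genes. Regions held by the induced lines alone were found at 1 of the 14 (KMT2A), against 14%.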

How the data were processed

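The series measured HNF4α binding by ChIP-seq. Of its 32 libraries, 18 immunoprecipitations with a deposited narrowPeak list were used, and 14 inputs were not analysed here. Bowtie2 2.2.9, MACS2 2.2.7 and the builds hg38 and mm10 are named, with no role, per the submitters' processing notes. Each deposited list belongs to 1 library, so replicates were not pooled. In it the authors give fold enrichment as a linear ratio, p and q as −log10 values, and an integer score. Read depth is unknown, so intervals and limits for 0 peaks cover counting of peaks only. In 18 of 18 lists more summits lay within 500 bp of a RefSeq GRCh38.p14 start (3.69% to 15.1%) than after a shift of 100 kb (0.407% to 2.14%).

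Peaks of all lists were merged when they overlapped by at least 1 bp, and a region entered a comparison when any compared list held it. Calls needed every list of one side and none of the other. Beside them, two-sided Fisher's exact tests of presence were adjusted by Benjamini-Hochberg over all regions (8 comparisons, threshold 0.05). Their unit was the list, and lists of the same line are not independent. Percentiles rank fold enrichment within a list. Groups came from the labelled line, genotype and antibody. Same-numbered libraries did not deviate together (correlations -0.0694 to 0.0674), so a shared number was not read as a pair. Sites named with values were the called ones, at most 6 per direction, and the 4 in the most lists per cluster. Any site outside that rule was chosen after its values were seen. Members and lists were chosen with earlier results of these data known. Alternatives were stricter q, equal list length, regions merged over compared lists only, summit distance, a 10 kb window, Fisher calls, a replicate block and leaving out each library. Exons, protein sequences and the sequence under most sites were not used here, and some listed cofactor results are not reported here. Code was tested on simulated data and ran in Python 3.11.15 with pandas 2.3.3, numpy 2.4.6 and scipy 1.17.1.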

Additional observations from a re-analysis of the deposited data

Results flagged for a closer look

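In whole lists, the number of HOX peaks differed between the isoforms in opposite directions in the 2 induced lines. Mean P1-α2 minus mean P2-α8 was -4.5 HOX peaks per list in Panc10.05 and 9 in BxPC3. For HOXA peaks alone it was -1.5 in Panc10.05 and 4.5 in BxPC3. For HOXC peaks alone it was -2 in Panc10.05 and 3 in BxPC3. In each case both lists of one isoform lay on one side of both lists of the other, in opposite order in the 2 lines, and the difference between lines was not tested. List length moved with these counts in BxPC3 and overlapped between isoforms in Panc10.05. In BxPC3 the P1-α2 lists had 41808 and 33737 peaks against 12681 and 14666 for P2-α8, and in Panc10.05 24828 and 34146 against 39111 and 33646. As a share of the list, HOX peaks were 0.0357% and 0.0334% in BxPC3 P1-α2 and P2-α8, and 0.0223% and 0.0302% in Panc10.05. Among the strongest 11686 peaks of each list the opposite order was gone: BxPC3 lists held 3 and 2 HOX peaks with P1-α2 and 5 and 4 with P2-α8, and Panc10.05 lists 1 and 1 with P1-α2 and 3 and 2 with P2-α8.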

How the results depend on the processing

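Over the alternatives other than leaving out a library, 74 of 100 counts of sites stayed within 1.5 times the main count and 26 did not. This compares numbers and not which sites were called, and a count of 0 that stayed 0 is among the 74. At a −log10 q of at least 20 the sgNC call was HOXA3 at 35.8 kb against sgP1 and HOXA13 at 96.1 kb against sgP2. Neither was a call of the main result. At a −log10 q of at least 20, calls fell to 1 for Panc10.05 P2-α8, 1 for sgNC against sgP1, 0 for sgP1 against sgP2, 0 for the P1 antibody in sgP2, 1 for BxPC3 against Panc10.05, and 0 for both induced lines and AsPC1, while sgP2 against sgP1 rose to 1; HOXA kept 11 sites and HOXB 4. At equal list length there was 1 call for Panc10.05 P2-α8, 0 for BxPC3 P1-α2, 1 for BxPC3 P2-α8, 2 for sgP1 against sgNC, 0 for sgNC in either comparison, 2 for sgP1 against sgP2, 1 for BxPC3 against Panc10.05, and 0 for the induced lines. With summits chained within 100 bp, sgP1 against sgP2 had 2 calls and the induced lines 0. With a 10 kb window, BxPC3 against Panc10.05 had 1 and the induced lines 0. By adjusted Fisher p, and with the replicate block, BxPC3 against Panc10.05 had 0. The replicate block changed no other call it was run on, and the adjusted p for the induced lines against AsPC1 was 0.0211 with it. The cause of each move was not tested.

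Leaving out 1 library at a time gave 3 to 5 calls for Panc10.05 P2-α8 (5 without P2-α8 replicate 2), 5 to 9 for BxPC3 P1-α2 (9 without P1-α2 replicate 2), 0 to 5 for sgP1 and 2 to 12 for sgNC between them, 0 to 3 for sgP2 and 2 to 12 for sgNC between those, 2 to 3 for sgP1 and 0 to 3 for sgP2 between the guides, 6 to 7 for the P1 antibody in sgP2, 2 to 2 for BxPC3 against Panc10.05, 1 to 1 for the induced lines and 3 to 4 for AsPC1. The counts of 12 were without sgNC replicate 2, those of 5 and 3 for sgP1 and sgP2 against sgNC without sgNC replicate 1, and that of 3 for sgP2 against sgP1 without sgP2 replicate 1. Counts that were 0 rose to 1 for sgP1 against sgNC without either sgP1 list, for sgP2 against sgNC without sgP2 replicate 1, and for sgP2 against sgP1 without sgP1 replicate 2; sgNC against sgP2 was 2 and 3 without sgP2 replicates 1 and 2. Panc10.05 P1-α2, BxPC3 P2-α8, P1-antibody sgNC and Panc10.05 against BxPC3 gave 0 to 0. Unknown read depth limits what an absent peak shows.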
